A study of Sus scrofa with 9 samples.

Results

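SHROOM3, MEGF9, GIPC2 and MOB3B are 4 genes with little described function in liver whose transcripts were lower in the livers of diabetic MIDY pigs than in those of wild type (WT) pigs. Their mean levels in MIDY liver were 37.1%, 42.9%, 44.0% and 45.7% of those in WT liver, in that order. They were picked by their measured fall in MIDY liver, with the level of every MIDY animal below that of every WT animal, from a table of 29837 gene symbols, of which 14100 had enough counts to be tested. All values of this contrast for the 4 genes are therefore descriptions and carry no test.

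The animals were 9 female pigs aged 2 years. Of these, 4 were transgenic for an insulin gene with the change C94Y (MIDY, for diabetes of youth that a mutant INS gene induces) and 5 were WT. Diabetic pigs received insulin preparations of short and of long action in the daytime, per the labels, so the transgene, the diabetes and its treatment cannot be told apart. All animals were fed daily, had free access to water and were housed under controlled conditions, and the sources used here give neither the promoter of the transgene nor founder line or litter. Each library was prepared from ribosomally depleted total RNA of 1 liver sample, and libraries held 14115415 to 19533463 counts. Markers of hepatocytes, ALB, APOA1 and APOB among them, were all detected, with a summed level of 127681 to 189738 counts per 1000000 (CPM) per library. Each of the 4 genes had counts in all 9 libraries, from 53 (GIPC2) to 552 (MEGF9).

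The 4 proteins do not form a family. SHROOM3 is an actin-binding scaffold that brings the kinase ROCK to the apical junctions of epithelial cells, where myosin then narrows the cell apex, and it is known mainly from the neural tube and the kidney. MEGF9 is a membrane protein with EGF-like repeats, described mainly in the nervous system. GIPC2 belongs to a group of adaptors whose PDZ domain holds the tails of membrane receptors and links them to the motor myosin VI during endocytosis. MOB3B belongs to the MOB family of kinase adaptors, whose MOB1 members switch on the LATS and NDR kinases of the Hippo pathway, which keeps the growth coactivators YAP1 and WWTR1 in check. In liver the Hippo pathway is best known as a control of organ size.

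SHROOM3 lies on chromosome 8 (72097561 to 72443869, Sscrofa11.1) and has 1 transcript model in the RefSeq gene table. Levels, in CPM after scaling for library composition, were 6.36, 4.86, 8.69 and 9.07 in MIDY replicates 1 to 4. In WT replicates 1 to 5 they were 19.6, 19.6, 21.4, 18.4 and 18.6. The lowest WT liver was thus 2.03 times as high as the highest MIDY liver, the widest such gap, as a ratio, among the 48 genes called lower whose groups did not overlap. GIPC2, MEGF9 and MOB3B ranked 7, 13 and 15 by that gap, which rests on the contrast they were picked on. The WT mean of SHROOM3 was 19.5 ± 1.19 CPM (SD, n = 5) and its MIDY mean 7.25 ± 1.99 CPM (SD, n = 4), a log2 fold change of -1.42 ± 0.17 (SE). WT livers differed little: their coefficient of variation was 6.09%, where the counting of reads alone gives 5.58%. MIDY livers were more spread, at 27.5% against 8.86% from counting, with replicates 1 and 2 below replicates 3 and 4.

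MEGF9 lies on chromosome 1 (260662355 to 260756930) with 1 transcript model. MIDY replicates 1 to 4 had 12.5, 8.05, 7.01 and 7.71 CPM, and WT replicates 1 to 5 had 16.1, 27.6, 23.3, 15.9 and 19.7 CPM. MIDY replicate 1 stood above the other MIDY livers and closest to WT, with the lowest WT liver (replicate 4) 1.28 times as high. WT livers averaged 20.5 ± 4.96 CPM (SD, n = 5) and MIDY livers 8.81 ± 2.48 CPM (SD, n = 4), which is -1.22 ± 0.21 (SE) as a log2 fold change. The animals of both groups varied by more than counting gives, with coefficients of variation of 24.2% in WT and 28.2% in MIDY against 5.39% and 8.19% from counting.

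GIPC2 lies on chromosome 6 (135129298 to 135217831) with 4 transcript models, which counts per gene do not separate. Its MIDY levels were 4.18, 3.68, 3.74 and 4.67 CPM, and its WT levels 7.79, 9.04, 6.63, 12.5 and 10.2 CPM. The MIDY livers lay close together, with a coefficient of variation of 11.3% that is no larger than the 12.0% from counting, while WT livers spread over 24.7%. The lowest WT liver, replicate 3, was 1.42 times as high as the highest MIDY liver, replicate 4. With means of 9.23 ± 2.28 CPM in WT (SD, n = 5) and 4.07 ± 0.46 CPM in MIDY (SD, n = 4), GIPC2 had a log2 fold change of -1.18 ± 0.19 (SE).

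MOB3B lies on chromosome 10 (38437933 to 38694667) with 3 transcript models. Levels were 7.05, 6.11, 4.95 and 6.19 CPM in the MIDY livers. WT livers had 14.4, 16.7, 15.3, 8.89 and 11.2 CPM, so that replicates 4 and 5 lay below the other WT livers. Of the 4 genes MOB3B had the narrowest gap between groups, with WT replicate 4 at 1.26 times MIDY replicate 1. Its mean was 13.3 ± 3.20 CPM in WT (SD, n = 5) and 6.07 ± 0.86 CPM in MIDY (SD, n = 4), a log2 fold change of -1.13 ± 0.19 (SE).

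**Figure D1:**
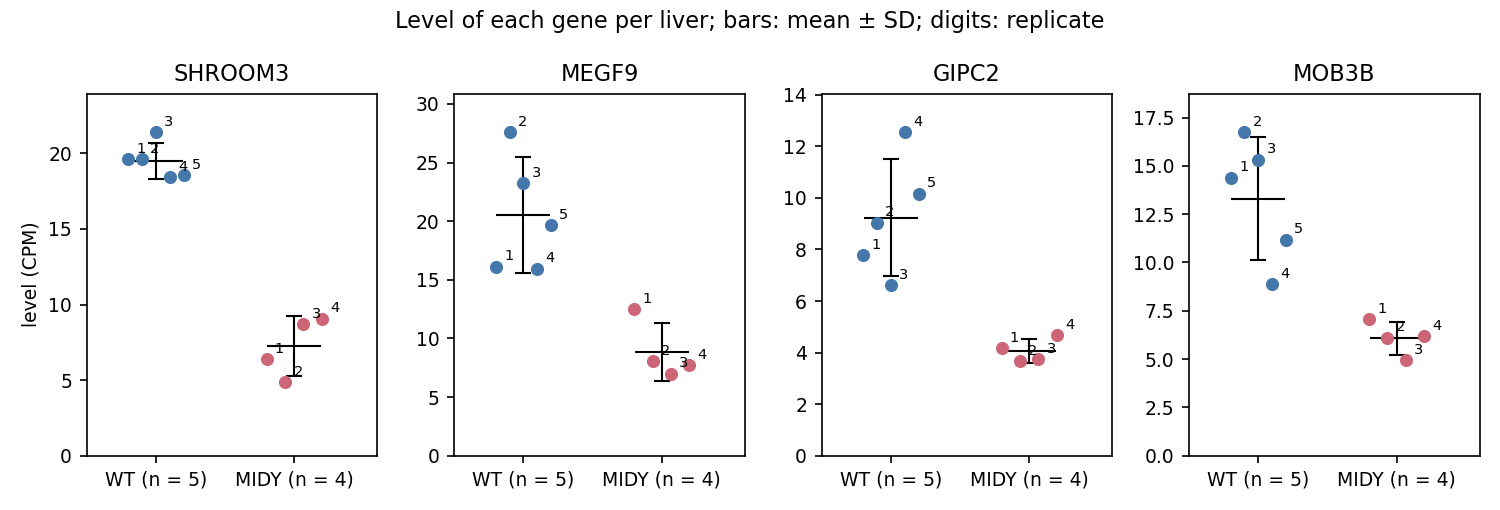
Level of SHROOM3, MEGF9, GIPC2 and MOB3B in counts per 1000000 (CPM, vertical axis from 0) in each WT (blue) and MIDY (red) liver, with the replicate number beside each point and the group mean ± SD in black. No MIDY point reaches the lowest WT point, the gap is widest for SHROOM3 (9.07 against 18.4 CPM) and narrowest as a ratio for MOB3B (7.05 against 8.89 CPM).

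By the quasi-likelihood test of edgeR over all genes, 50 (0.355%) were called lower and 115 (0.816%) higher in MIDY liver at an adjusted p below 0.05, and 371 (2.63%) were lower with no overlap between the groups. The 4 genes are among the 371 by their choice, and also among the 50, which rest on the same contrast, so nothing is read from either. Among the 50 genes called lower, 2 at the margin of the overlap criterion are named, after their values were seen. TPM2 was just inside it (lowest WT liver 49.5 CPM, highest MIDY liver 47.9 CPM) and KITLG just outside (12.5 and 13.1 CPM). Genes that were not called can lie nearer the margin.

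The choice of the 4 genes does not fix the order of the animals within a group. The deviations of each liver from its group mean (log2 CPM) were therefore compared between the 4 genes. MEGF9 and MOB3B deviated in the same direction in 6 of the 9 livers, with a Pearson r of 0.72 and a Spearman rho of 0.72 over 9 livers. That relation did not pass adjustment over the 6 pairs of genes (exact permutation within groups, p = 0.0448 for r and 0.0635 for rho, adjusted p = 0.269 and 0.381), and r was 0.56 without the 2 livers farthest from the median of MEGF9. GIPC2 and MOB3B leaned the other way (r = -0.62, rho = -0.47, exact permutation p = 0.173 and 0.285, adjusted p = 0.518 and 0.855), with WT replicate 4 the highest for GIPC2 and the lowest for MOB3B. Without the 2 livers farthest from the median of GIPC2, that r was -0.09. SHROOM3 showed r between -0.16 and -0.01 with the other 3 genes (rho between -0.13 and 0.15, lowest exact permutation p = 0.674, lowest adjusted p = 0.872). In 5 of the 6 pairs the sign of r differed between the 4 MIDY and the 5 WT livers, groups too small for an r of their own, and MEGF9 with MOB3B was positive in both. Values of r near 0 over 9 livers can thus join opposite signs in the groups. A common within-group pattern of the 4 genes was not detectable with 9 animals.

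**Figure D2:**
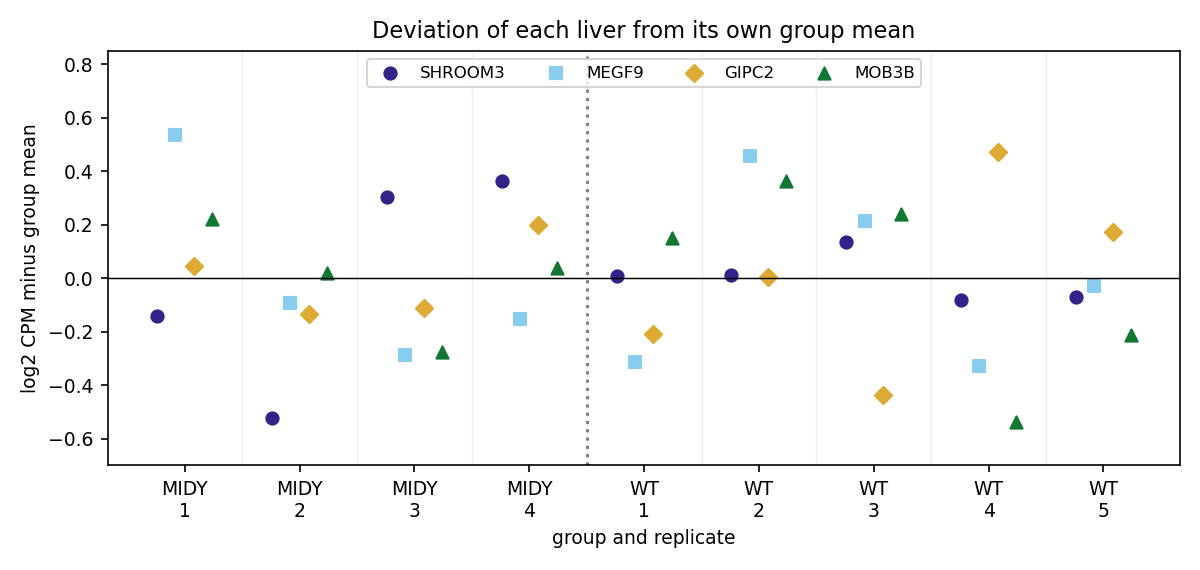
Deviation of each liver from the mean of its own group, in log2 CPM (vertical axis), for SHROOM3, MEGF9, GIPC2 and MOB3B in the 4 MIDY and 5 WT livers (horizontal axis). The symbols of one liver rarely lie together: in WT replicate 4, GIPC2 was 0.47 above and MOB3B 0.54 below its WT mean.

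For each of the 4 genes, the 3 genes whose deviations were most like its own were sought among 12956 tested genes with a mean of at least 1 CPM. The leading gene for SHROOM3 was CTDSPL, a small phosphatase gene (r = 0.97 over 9 livers), followed by GNA15, a G protein subunit, and MTMR12, of the myotubularin family (0.96 each). For MEGF9 they were MASP2, a protease of the lectin pathway of complement that liver secretes (0.97), the proteasome gene PSMC3 (0.96) and the uncharacterised LOC106504547 (0.96). For GIPC2 they were the cochaperone gene DNAJC7, the nucleotide sugar transporter gene SLC35D1 (0.97 each) and CD84, a receptor of immune cells (0.96). For MOB3B they were MEMO1 (0.96), GATAD2A and ANP32E (0.93 each). These are the extremes of many genes over few animals: r was at least 0.9 for 22, 15, 19 and 8 genes with SHROOM3, MEGF9, GIPC2 and MOB3B. None of these 12 genes was itself called between MIDY and WT by edgeR with all libraries. Of all genes tested 0.355% were called lower and 0.816% higher, so none among 12 is not read as a result. Levels of CD84 were 8.49 to 14.2 CPM in WT and 5.83 to 7.97 CPM in MIDY livers (edgeR adjusted p = 0.0615, and between 0.00646 and 0.171 over 18 alternatives, with 3 calls). MASP2 had 48.7 to 89.3 CPM in WT and 29.5 to 61.5 CPM in MIDY livers (edgeR adjusted p = 0.153). It was called lower with DESeq2 and by edgeR without MIDY replicate 1 (log2 fold change -0.79 and -1.08, adjusted p = 0.0317 and 0.0301), in 2 of 18 alternatives.

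Gene models within or beside the 4 genes were examined because counts of overlapping models can be confused, and the strand setting of the counting is not given. Within the span of SHROOM3 lies LOC110262128, a long non-coding RNA model (72354422 to 72357484). It had 1, 0, 8 and 14 counts in MIDY replicates 1 to 4 and 29, 33, 15, 19 and 27 in WT replicates 1 to 5, so that the groups did not overlap at these low counts. Its order in the MIDY livers, with replicate 2 lowest and then 1, 3 and 4, is that of SHROOM3. In the WT livers the orders differed: replicate 3 was the lowest for LOC110262128 (1.04 CPM) and the highest for SHROOM3 (21.4 CPM). The fitted log2 fold change of LOC110262128, -2.18 ± 0.61 (SE), was not called (edgeR adjusted p = 0.107). It was called in 3 of 18 alternatives (adjusted p 0.00832 to 0.249), and without strand its reads cannot be told apart from those of SHROOM3 itself. The other 2 models within SHROOM3 and both within MOB3B (IFNK among them) had at most 1 count in any library. Reads that overlap such a model could also be dropped in counting, which was not tested.

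The nearest tested genes on the chromosome did not pass the test. CCDC158, 8595 bases before SHROOM3, had a log2 fold change of -0.27 ± 0.26. CDK5RAP2 and FBXW2, on either side of MEGF9, had -0.01 ± 0.18 and 0.04 ± 0.14. DNAJB4, a heat shock cochaperone gene 26096 bases after GIPC2, had -0.42 ± 0.16, and C10H9orf72, 22030 bases before MOB3B, had -0.23 ± 0.18 (log2 ± SE; edgeR adjusted p from 0.215 to 0.994 over these 5). The 4 genes lie on 4 different chromosomes. All have long spans, from 88534 bases for GIPC2 to 346309 for SHROOM3, at percentiles 79.5 (GIPC2), 81.0 (MEGF9), 94.9 (MOB3B) and 96.9 (SHROOM3) among 12867 tested protein-coding genes, whose median span was 28770 bases. The 2633 genes at least as long as GIPC2 had a median log2 fold change of -0.03, beside -1.5e-04 for shorter genes. Genes of that length made up 20.5% of those tested and 18 of the 46 protein-coding genes called lower, whose median span was 50383 bases. The 4 genes, chosen on this contrast, are counted in both the 18 and the 46, and the length limit is the span of GIPC2. Nothing is therefore read from that share. The part of gene length in the falls was not tested.

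Close relatives of the 4 genes were compared next, from families listed by name. SHROOM3 was accompanied by no called relative. SHROOM2, which binds actin as SHROOM3 does, had 14.6 ± 2.66 CPM in WT (SD, n = 5) and 19.3 ± 1.86 CPM in MIDY (SD, n = 4), with every MIDY liver above every WT liver, but did not pass (log2 fold change 0.40 ± 0.15 SE; edgeR adjusted p = 0.207). Log2 fold changes were -0.44 ± 0.20 for SHROOM4 and -0.01 ± 0.19 for SHROOM1 (SE, adjusted p = 0.292 and 0.986 with edgeR). The direction of SHROOM1 changed with the scaling, to 0.01 with total counts alone.

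In the MEGF family, the value of MEGF10 was opposite in sign to that of MEGF9. MEGF10, a receptor by which glia and muscle precursor cells engulf or adhere, had 3.62, 2.85, 7.27 and 6.66 CPM in MIDY replicates 1 to 4 and 1.88, 3.20, 2.00, 1.77 and 1.92 CPM in WT replicates 1 to 5. The groups overlapped through WT replicate 2 and MIDY replicate 2. The log2 fold change of 1.24 ± 0.30 (SE) missed the threshold with edgeR (adjusted p = 0.0667), and it was called in 2 of 18 alternatives (DESeq2 and no low-count filter; adjusted p 0.00751 to 0.206). MEGF6 and MEGF11 had 30 and 8 counts over all libraries and were not tested.

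The other GIPC genes had low counts, at most 48 in any library. GIPC1, the widely expressed member, had 1.54 ± 0.76 CPM in WT (SD, n = 5) and 1.24 ± 0.12 CPM in MIDY (SD, n = 4). GIPC3, known from hearing loss, had 1.96 ± 0.47 and 1.87 ± 0.24 CPM (SD, n = 5 and 4). Neither passed (log2 fold change -0.31 ± 0.36 and -0.07 ± 0.24 SE; edgeR adjusted p = 0.718 and 0.919).

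Among MOB genes, MOB1A and MOB1B, the activators of LATS kinases, had log2 fold changes of -0.01 ± 0.09 and 0.16 ± 0.10 (SE). The value of MOB1A turned to 0.01 with total counts alone. MOB3A and MOB3C, the closest relatives of MOB3B, had 0.18 ± 0.16 and -0.39 ± 0.23, and MOB2, a partner of the NDR kinases, 0.23 ± 0.19 (log2 ± SE; edgeR adjusted p from 0.430 to 0.974 over these 5 genes). MOB3A was at 6.50 ± 0.45 CPM in WT (SD, n = 5) and 7.38 ± 1.59 CPM in MIDY (SD, n = 4). Over the 4 families, 11 relatives were tested and described here. Of these 0 were called by edgeR or by limma voom and 1 (MEGF10) by DESeq2. By edgeR 0.355% of all genes tested were called lower and 0.816% higher. Of the 11 relatives 3 had an unadjusted edgeR p below 0.05, as did 16.1% of all genes tested (2277 of 14100). Reads shared between near-identical stretches of relatives could be split or dropped in counting, which was not tested.

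**Figure D3:**
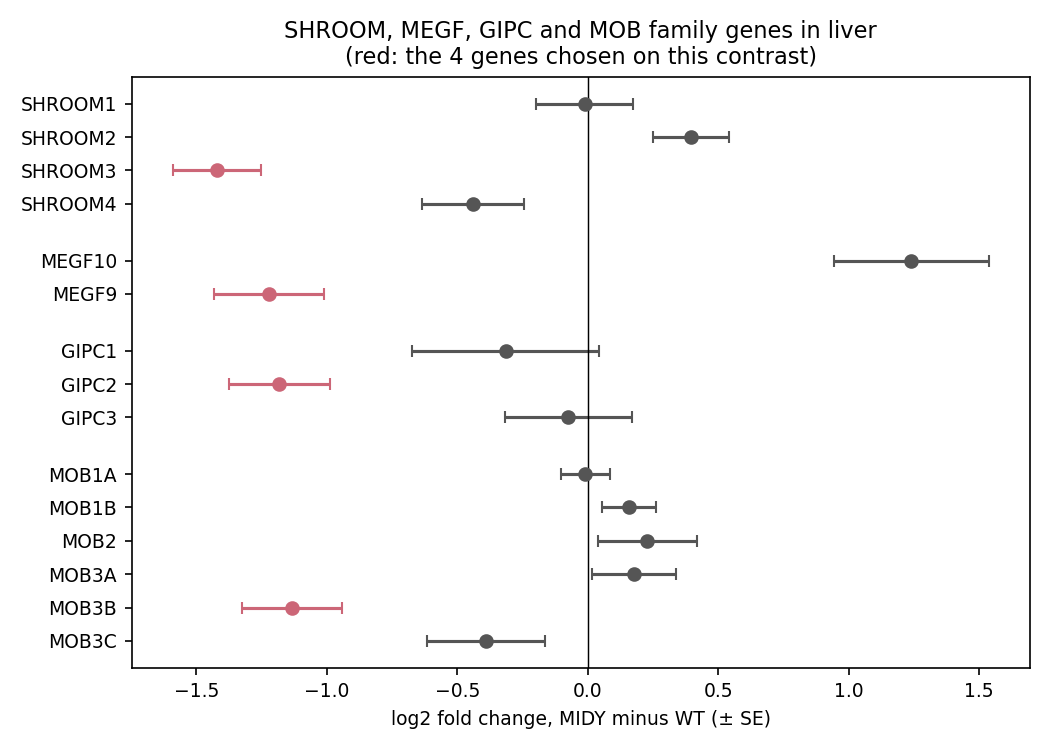
Log2 fold change, MIDY minus WT, with its standard error (horizontal axis) for each tested gene described here of the SHROOM, MEGF, GIPC and MOB families. SHROOM3, MEGF9, GIPC2 and MOB3B (red), chosen on this contrast, lie at -1.13 or below, and the 11 relatives (grey) between -0.44 (SHROOM4) and 1.24 (MEGF10).

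Genes that act with SHROOM3 were represented by 2 lists. Of 14 tested genes of ROCK and actomyosin, 0 were called by edgeR, DESeq2 or limma voom. Of all genes tested edgeR called 0.355% lower and 0.816% higher. In the list 5 (35.7%, beside 16.1% of all genes tested) had an unadjusted edgeR p below 0.05. Of these 4 had values below 0 and 1 above, and the median log2 fold change of the list was -0.12 beside -0.005 for all genes tested. The kinases that SHROOM3 recruits were at 0.08 ± 0.09 (ROCK1) and -0.01 ± 0.10 (ROCK2), while the myosin light chain MYL9 was at -0.48 ± 0.18, the heavy chain MYH9 at -0.34 ± 0.14 and the GTPase RHOC at -0.39 ± 0.17 (log2 ± SE; edgeR adjusted p from 0.223 to 0.973). Of 16 apical junction genes 0 were called by edgeR or limma voom, 1 was called higher (CLDN1) and 1 lower (CLDN2) by DESeq2, and 5 (31.3%, beside 16.1% of all genes tested) had an unadjusted edgeR p below 0.05, 2 below and 3 above 0. The median of the 16 was 0.10. The claudins, which seal tight junctions or form pores in them, differed in sign: CLDN1 had 43.9 ± 4.53 CPM in WT and 58.9 ± 8.50 in MIDY, and the pore-forming CLDN2 5.69 ± 1.15 CPM in WT and 2.89 ± 1.36 in MIDY (SD, n = 5 and 4; adjusted p with edgeR 0.107 for CLDN1 and 0.122 for CLDN2). NECTIN2, an adhesion molecule of the same apical junction list, had 19.0 ± 1.36 CPM in WT (SD, n = 5) and 25.3 ± 4.58 CPM in MIDY (SD, n = 4; edgeR adjusted p = 0.138).

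Of 12 tested genes whose proteins are known to bind GIPC adaptors, 4 had an unadjusted edgeR p below 0.05, 2 below and 2 above 0. That is 33.3%, beside 16.1% of all genes tested. By edgeR 1 of the 12 was called lower and 0 higher, beside 0.355% and 0.816% of all genes tested. This was NRP1, the neuropilin that serves as co-receptor for VEGF and semaphorins, at 58.1, 59.1, 60.3 and 63.4 CPM in MIDY replicates 1 to 4 and 86.8, 95.0, 74.96, 83.2 and 82.0 CPM in WT replicates 1 to 5. The groups did not overlap, and the log2 fold change was -0.49 ± 0.09 (SE; edgeR adjusted p = 0.0310). NRP1 was called in 10 of 18 alternatives (adjusted p 1.0e-04 to 0.108), and its log2 fold change stayed between -0.53 and -0.42 in all 18. It lost its call without MIDY replicate 1, 2 or 3, without WT replicate 2, 4 or 5, without WT replicates 1 and 2 together, and with total counts alone. Endothelial cells carry NRP1, and the summed level of 10 endothelial markers was 830 to 909 CPM in MIDY and 813 to 959 CPM in WT. Within that sum, 8 of the 10 markers had fitted values below 0, among them TEK and PECAM1 at -0.24 each, while STAB2, the most abundant, was at 0.38 (log2 fold change; edgeR adjusted p = 0.258, 0.271 and 0.144). The part of endothelial cells in the fall of NRP1 was not tested. The median over the 12 GIPC partners was -0.04, and MYO6, the myosin that GIPC adaptors link to, had a log2 fold change of 0.33 ± 0.15 (SE; edgeR adjusted p = 0.301).

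Of 19 Hippo pathway kinases, adaptors and coactivators 0 were called by edgeR, DESeq2 or limma voom. By edgeR 0.355% of all genes tested were called lower and 0.816% higher, so 0 of 19 is not read as a result. Of the 19, WWTR1 and STK38L had an unadjusted edgeR p below 0.05, a share of 10.5% beside 16.1% of all genes tested. The median log2 fold change was -0.06. STK4, the MST kinase, was at -0.10 ± 0.11, LATS1 at -0.06 ± 0.09 and YAP1 at 0.09 ± 0.14, and WWTR1 at -0.36 ± 0.13 (log2 ± SE; edgeR adjusted p from 0.202 to 0.821). The kinase gene STK38L was at -0.30 ± 0.13 (log2 ± SE; edgeR adjusted p = 0.286). Its levels were 20.9 to 25.2 CPM in MIDY and 25.7 to 37.3 CPM in WT livers. Of 8 tested genes that YAP1 is known to induce, 0 were called by edgeR, DESeq2 or limma voom and 4 (50%, beside 16.1% of all genes tested) had an unadjusted edgeR p below 0.05. All 8 had a fitted value below 0, where 50.7% of all genes tested did, and their median was -0.33. CYR61, a matricellular protein, had 10.4 CPM in WT and 5.86 CPM in MIDY on average (log2 fold change -0.84 ± 0.35 SE; edgeR adjusted p = 0.270). TGFB2, a growth factor, had 3.62 ± 0.42 CPM in WT livers (SD, n = 5) against 2.14 ± 0.77 in MIDY livers (SD, n = 4; adjusted p = 0.170 with edgeR). Over all 9 lists together, 1 of 80 tested genes was called lower by edgeR and 0 higher, beside the 0.355% and 0.816% of all genes.

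**Figure D4:**
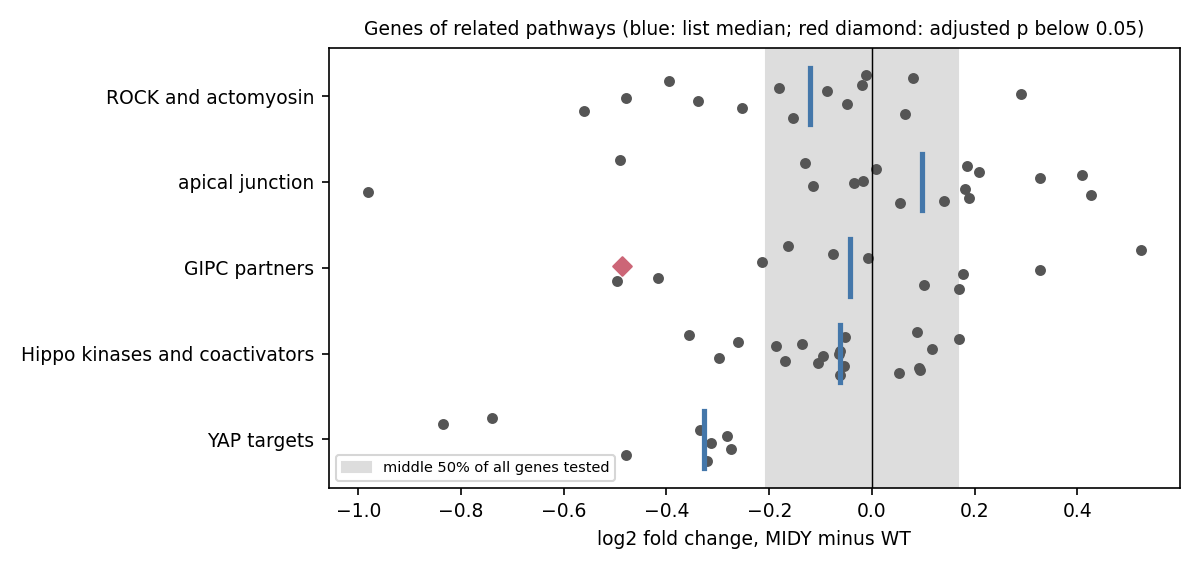
Log2 fold change, MIDY minus WT (horizontal axis), of each tested gene in 5 lists related to the 4 genes, with the list median as a blue bar, the middle of all genes tested as a grey band and genes with an edgeR adjusted p below 0.05 as red diamonds. The only diamond is NRP1, and the 8 YAP target genes all lie left of 0 with a median of -0.33.

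In bulk liver, fewer cells of a type and less RNA per cell cannot be told apart, so the levels of cell type markers are set beside the falls. Summed levels of 10 T and NK cell markers were 45.1 to 53.4 CPM in MIDY and 56.7 to 110 CPM in WT, and those of 9 B and plasma cell markers 28.9 to 38.2 CPM in MIDY and 42.5 to 74.7 CPM in WT, so in both lists every MIDY liver was below every WT liver (exact permutation p = 0.0159 and 0.00794, adjusted p = 0.103 for both over 13 lists). The second of these p-values is the smallest that 4 against 5 animals allow, and a lone list at it cannot pass the adjustment. Stellate cell and fibroblast markers summed to 458 to 560 CPM in MIDY and 527 to 777 CPM in WT, biliary markers to 52.3 to 80.0 and 60.4 to 123 CPM, and muscle markers to 35.3 to 70.6 and 57.7 to 227 CPM (exact permutation adjusted p = 0.138, 0.172 and 0.144). Neutrophil markers summed to 4.77 to 7.42 CPM in MIDY and 6.74 to 12.3 CPM in WT, and macrophage markers to 793 to 1064 and 887 to 1233 CPM (exact permutation adjusted p = 0.144 and 0.447).

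Hepatocyte markers overlapped between the groups, at 156157 to 189738 CPM in MIDY and 127681 to 188964 CPM in WT. Erythroid markers, HBB above all, varied widely in both groups (163 to 540 CPM in MIDY, 69.4 to 1507 CPM in WT). Adipocyte markers, ADIPOR2 above all, summed to 524 to 764 CPM in MIDY and 452 to 657 CPM in WT, and pancreas markers to at most 4.14 CPM. Exact permutation adjusted p was from 0.265 to 0.808 over these 4 lists. Gut and gallbladder markers, of which FABP2 and FABP6 were at 0, summed to 36.5 to 61.3 and 33.3 to 142 CPM (exact permutation adjusted p = 0.348). Also at 0 were PNLIP and GCG of pancreas and MYH7 and TNNT3 of muscle. Single markers called by edgeR were CD2 of T cells, COL1A2 of fibroblasts and VIL1 of the gut and gallbladder list, all lower in MIDY (log2 fold change -0.90, -0.81 and -1.41; adjusted p = 0.0377, 0.0434 and 0.0234). They are 1 of 9, 1 of 10 and 1 of 3 tested markers of their lists, beside 0.355% of all genes tested. In the list of VIL1, CDH17, LGALS4 and CDX2 had 8, 13 and 3 counts over all libraries. All 3 tested markers of that list had fitted values below 0, with MUC13 at -0.50 and MUC5B at -1.70 (log2 fold change; edgeR adjusted p = 0.489 and 0.603). The part of gut or gallbladder cells in the call of VIL1 was not tested. DESeq2 called CD2, COL1A2, VIL1, PKHD1 of biliary cells, COL1A1, ACTA2, CXCR2 of neutrophils and TAGLN of muscle lower. It called CPS1 of hepatocytes, MARCO of macrophages and ADIPOR2 of the adipocyte list higher, where it called 284 genes lower and 358 higher in all. ADIPOR2 averaged 312 CPM in WT and 440 CPM in MIDY, while ADIPOQ, LEP and LPL of its list had 1, 4 and 13 counts over all libraries. Of the 6 tested markers of that list 4 had fitted values above 0 and 2 below. PLIN1 was at 0.90, GPD1 at 0.62 and FABP4 at 0.42, while THRSP was at -1.05 and CIDEC at -0.01 (log2 fold change; edgeR adjusted p from 0.108 to 0.995). The part of adipocytes in the call of ADIPOR2 was not tested. Limma voom called COL1A2, VIL1, PKHD1 and COL1A1, all lower, and not CD2. Of the 10 stellate cell and fibroblast markers 7 had fitted values below 0, while RGS5, LRAT and RELN had values above 0. The part of any of these cell types in the falls of SHROOM3, MEGF9, GIPC2 and MOB3B was not tested.

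**Figure D5:**
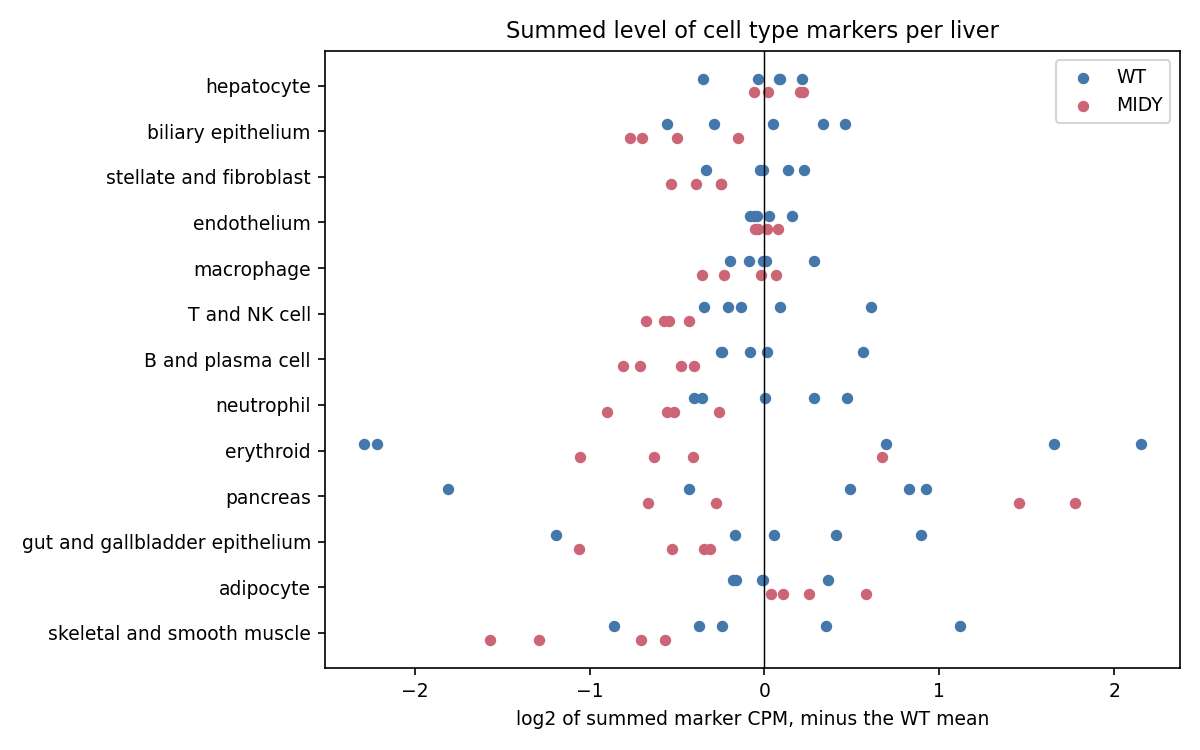
Summed CPM of 13 cell type marker lists in each liver, as log2 minus the WT mean of the list (horizontal axis), for WT (blue) and MIDY (red) livers. The groups are apart for T and NK cell and for B and plasma cell markers and overlap in the other 11 lists.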

How the data were processed

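Liver RNA of 4 MIDY and 5 WT pigs was measured with 1 library per animal, grouped by the genotype label. The values the authors deposited are raw counts, 1 row per gene symbol, with no normalization. STAR, HTSeq and DESeq2 and the build Sscrofa11.1 are named in the submitters' processing notes. Versions, annotation release and strandedness of the counting are not given there. Every one of the 29837 symbols had an entry in the RefSeq table for Sscrofa11.1, which gave positions and models. No sequences were used here.

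Counts were tested with edgeR 4.0.16 (R 4.3.3) after filterByExpr (14100 genes) and TMM scaling, with the robust quasi-likelihood test. P-values are two-sided and Benjamini-Hochberg adjusted over all genes tested, and a call is an adjusted p below 0.05. Standard errors were derived from the fold change and its F statistic. CPM are counts per 1000000 of the TMM-scaled library. The counting part of a coefficient of variation is 1 divided by the square root of the mean count, covers counting error only and was given as percent. Log2 CPM for deviations used a prior count of 2. Marker sums were tested by exact permutation (two-sided) over 126 assignments, and deviations by all 2880 permutations within groups. The fit was tested on simulated data.

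Named genes are the 4 chosen genes, tested relatives of their families, called genes of the other lists or else the 3 with the smallest p, the 3 genes with the most similar deviations, and overlapping or nearest genes. Other genes are named beside them as members of the lists, and 1 relative is not reported here. The chosen genes, lists and tests were set with earlier results of these data known. Other settings tried were scaling by RLE, scaling by total counts alone, taking out the 10 most abundant genes, testing without a low-count filter, a minimum of 1 CPM in 4 libraries, DESeq2 1.42.0, voom with sample weights (limma 3.58.1), 1 surrogate variable (sva 3.50.0), leaving out each library, and leaving out WT replicates 1 and 2 together.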

Additional observations from a re-analysis of the deposited data

Results flagged for a closer look

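In 7 of 118 groups of livers, 1 liver stood apart from the rest of its group by Dixon's criterion, and chance gives about 1 in 20. None of these was a group of SHROOM3, MEGF9, GIPC2 or MOB3B. GIPC1 was at 1.42 CPM in MIDY replicate 4 and at 1.16 to 1.19 CPM in the other MIDY livers. MEGF10 was at 3.20 CPM in WT replicate 2, against 1.77 to 2.00 CPM in the other WT livers. CLDN1 was at 51.8 CPM in WT replicate 1 (others 40.3 to 42.9 CPM), STK38 at 20.5 CPM in WT replicate 3 (others 15.1 to 16.5 CPM) and STK38L at 37.3 CPM in WT replicate 5 (others 25.7 to 27.1 CPM). The summed B and plasma cell markers were at 74.7 CPM in WT replicate 2 (others 42.5 to 51.1 CPM), and the summed adipocyte markers at 657 CPM in WT replicate 1 (others 452 to 508 CPM).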

How the results depend on the processing

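In 18 alternatives the log2 fold changes stayed between -1.55 and -1.28 for SHROOM3, -1.44 and -1.09 for MEGF9, -1.28 and -1.05 for GIPC2, and -1.25 and -0.96 for MOB3B. Their place among the genes called lower, from which nothing is read, was less stable. MEGF9, GIPC2 and MOB3B were not called without MIDY replicate 2 or without MIDY replicate 3. MEGF9 was also not called without WT replicate 3, nor MOB3B without WT replicates 1 and 2 together. No paired analysis was possible because the labels give no litter or pairing of the animals, and replicate numbers do not pair them. Counts of called genes depended on tool and library: 358 higher and 284 lower with DESeq2, 81 lower with voom, 79 lower with a surrogate variable, 42 higher and 24 lower without WT replicates 1 and 2 together, and, leaving out 1 library, 34 (MIDY replicate 2) to 152 (WT replicate 1) higher and 4 to 107 lower (the same libraries). The 1 related gene called lower became 0 with total counts alone and without WT replicates 1 and 2 together, 0 to 1 leaving out 1 library and 2 with DESeq2, which also called 2 higher, and 1 was higher with no filter. Values near 0 changed sign. With total counts alone CDK5RAP2, GATAD2A, MEMO1, MOB1A and SHROOM1 were at 0.013, 0.023, 0.0022, 0.013 and 0.011. With no filter CDK5RAP2 and GATAD2A were at 0.0043 and 0.0066, and with voom CDK5RAP2, GATAD2A and SHROOM1 at 0.050, 0.012 and 0.092. With a surrogate variable GATAD2A, MEMO1, MOB1A and PSMC3 were at 0.015, 0.0045, 0.0012 and 0.018, and without WT replicates 1 and 2 together CDK5RAP2, GATAD2A and MEMO1 at 0.10, 0.048 and 0.14. Leaving out 1 library gave -0.097 to 0.13 for CDK5RAP2, -0.032 to 0.13 for FBXW2, -0.060 to 0.046 for GATAD2A, -0.15 to 0.074 for GIPC3, -0.11 to 0.059 for MEMO1, -0.073 to 0.037 for MOB1A, -0.026 to 0.067 for MTMR12, -0.16 to 0.053 for PSMC3 and -0.13 to 0.10 for SHROOM1. The difference in summed endothelial markers was -9.04e-05 with RLE, -0.017 without WT replicates 1 and 2 together and -0.023 to 0.041 leaving out 1 library; without those 2 WT livers it was -0.032 for hepatocyte and 0.59 for erythroid markers, the latter -0.93 to 0.18 leaving out 1 library. The cause of these changes was not tested. No marker list passed in any alternative (lowest adjusted p = 0.0619).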

Other observations

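The deviations of the 4 genes within their groups were also set beside those of the 13 summed marker lists, 52 relations over 9 livers. None passed adjustment (lowest adjusted p = 0.538 for r), and 2 had an unadjusted exact permutation p below 0.05 for Pearson's r, both with GIPC2. GIPC2 was higher in livers with higher biliary marker levels (r = 0.78, rho = 0.90, exact permutation p = 0.0406 and 0.00868, adjusted p = 0.538 and 0.451) and r was 0.68 without the 2 livers farthest from the median of the marker sum. It was lower in livers with higher macrophage marker levels (r = -0.78, rho = -0.73, exact permutation p = 0.0163 and 0.0333, adjusted p = 0.538 and 0.516), with r = -0.62 without the 2 farthest livers.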
